A study of Homo sapiens with 6 samples.

Results

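The proteasome genes of U251 cells, an established human glioblastoma line, were examined in 6 RNA-seq libraries. The genes were taken by name, as every protein-coding gene whose symbol is PSM, a letter from A to G and a number, which gave 49 of the 58735 genes in the table. Of these, 46 were expressed enough to be tested, among 12136 genes tested in all. The control cells (NC, n = 3) received sterile deionized water, and the treated cells (TNF-α, n = 3) received recombinant human tumor necrosis factor-α at 10 ng/mL, an inflammatory cytokine, each for 24 h. The labels describe the replicates as independent biological ones of this single cell line, and no allele, transgene or other agent is named for either group. Expression is given as FPKM, the fragments of a gene per kilobase of its exons and scaled to the deposited library size. It allows genes of different length to be set side by side, although comparisons between libraries depend on that scaling and exons shared with other genes can lower a gene's level.

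The proteasome is the protease that removes ubiquitin-tagged proteins from the cytosol and nucleus. Its barrel-shaped core is a stack of rings: outer alpha rings that gate the entrance, and inner beta rings that carry the proteolytic sites. A regulatory cap with a ring of ATPases unfolds substrates and feeds them in. Inflammatory cytokines, interferon-γ above all, are known to raise PSMB8, PSMB9 and PSMB10, whose products replace the constitutive catalytic subunits PSMB5, PSMB6 and PSMB7 in newly built cores. The result is the immunoproteasome, which yields many of the peptides shown on MHC class I. PSME1 and PSME2 encode PA28 alpha and beta, which form a cap without ATPase activity that opens the core. These 5 genes are called the inducible genes below, by their textbook role. They were contrasted with the 31 genes of the constitutive core and cap, of which 30 were tested.

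The libraries held 31992167 to 37897044 reads in genes. TNF-α replicates 2 and 3 stood apart from the other 4 libraries in composition. Ribosomal protein genes took 7.30% and 6.26% of their reads, against 2.62% to 2.90% elsewhere, and genes longer than 8 kb took 16.6% and 17.9%, against 28.8% to 29.1%. Of the gene-to-gene variance in log2 ratio, GC content and length took up 34.1% and 33.0% in these libraries, 1.27% in the first TNF-α library and 3.25% to 16.6% among the controls. Proteasome genes, 49 in all, drew 0.748%, 0.713% and 0.727% of reads under NC and 0.718%, 1.15% and 1.09% under TNF-α. The results below are therefore given by library, and with and without these libraries. Of 7 glial markers, 5 reached an FPKM of 1, led by VIM and CD44, while S100B and OLIG2 were at or near 0 in every library. The astrocyte filament gene GFAP fell, from an FPKM of 8.16, 7.10 and 9.47 in NC to 1.58, 2.60 and 2.39 in TNF-α (log2 fold change -1.54, SE 0.18, limma adjusted p = 0.021). VIM was 325 to 362 in NC and 434, 974 and 850 in TNF-α, and SOX2 58.9 to 66.3 against 57.8, 22.6 and 30.4, neither of them called. The part of these shifts in the proteasome values was not tested. Of 9 leukocyte markers, 3 (PTPRC, CD3E and MS4A1) were at 0 in every library and only CD14 reached an FPKM of 1. The summed leukocyte FPKM was 0.896 to 1.21 in NC and 0.654 to 1.75 in TNF-α. CD14 had an FPKM of 0.66, 0.82 and 0.76 in NC and 0.53, 1.55 and 1.20 in TNF-α. Leukocytes carry immunoproteasome without stimulation, and any part of such cells in the proteasome values was not tested. In bulk RNA a change in the make-up of the cells and a change in RNA per cell cannot be told apart.

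The 5 inducible genes had the 5 largest log2 fold changes of the 46 tested proteasome genes, from 1.20 to 1.46 on the log2(FPKM + 1) scale, and each was higher in every TNF-α library than in every NC library. The constitutive subunits had a median log2 fold change of 0.73. No proteasome gene passed the test over all genes (limma, Benjamini-Hochberg adjusted p under 0.05): adjusted p ran from 0.165 for PSMB10 to 0.995 for PSMD12. Across all genes, 0.717% were called higher and 0.297% lower. Before adjustment, 13 of the 46 were under 0.05, which were all 5 inducible genes, 7 of the 30 constitutive subunits and PSMG2, where 24.2% of all genes were. The 7 were 5 of the 6 tested alpha-ring genes and 2 of the 7 constitutive beta genes, so most of the alpha ring shared this trait. One of them, PSMA2, reached the level required for testing only through the TNF-α libraries. Limma-voom on the recovered reads also called none, with 10 under 0.05 before adjustment. In TNF-α replicate 1 the median log2 ratio to the NC mean was 0.31 for the inducible genes and 0.0067 for the constitutive subunits, whereas in replicates 2 and 3 it was 1.93 and 1.67 against 1.17 and 0.94. The medians over all genes tested were -0.0065, 0.076 and 0.052 in the 3 libraries.

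**Figure D1:**
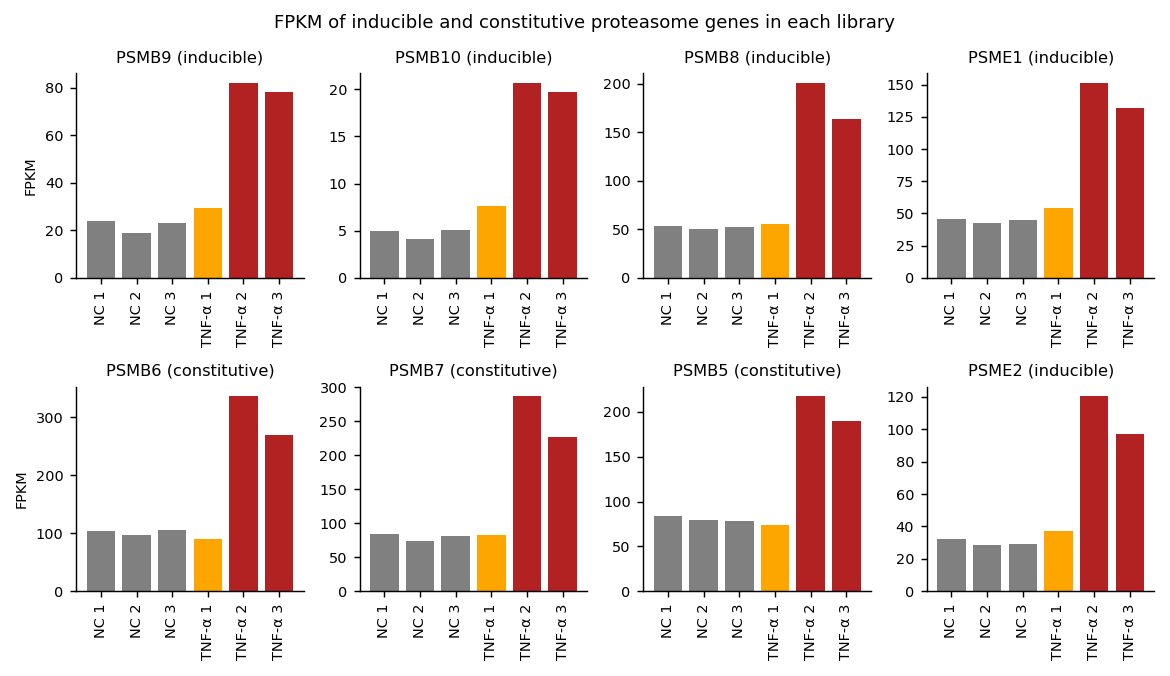
Bars give the FPKM of each gene in each of the 6 libraries, from 0, with NC in grey, TNF-α replicate 1 in orange and TNF-α replicates 2 and 3 in red. The 5 inducible genes are above every NC bar in all 3 TNF-α libraries, while PSMB5, PSMB6 and PSMB7 are above them only in replicates 2 and 3.

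PSMB9 encodes the beta1i subunit, which takes the place of the caspase-like site of PSMB6. It lies on chromosome 6 within the MHC region (32844136 to 32859585, plus strand, GRCh38). Its FPKM was 23.9, 18.99 and 23.01 in NC and 29.4, 82.0 and 78.2 in TNF-α. The groups did not overlap, and replicate 1 stood much nearer to the NC libraries than replicates 2 and 3 did. Against the NC mean of 21.98 ± 2.63 (SD, n = 3) the TNF-α libraries were 1.34-, 3.73- and 3.56-fold, with a log2 fold change of 1.35 (SE 0.40, limma adjusted p = 0.195).

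PSMB10 encodes beta2i, the counterpart of the trypsin-like PSMB7, and lies on chromosome 16 (67934502 to 67937087, minus strand). Its FPKM was 4.96, 4.08 and 5.11 in NC and 7.61, 20.7 and 19.7 in TNF-α. It was the lowest of the 3 inducible catalytic genes in every library and had the largest fold change of all proteasome genes, 1.46 on the log2 scale (SE 0.37, limma adjusted p = 0.165). The TNF-α libraries were 1.61-, 4.38- and 4.17-fold the NC mean. PSMB10 was also the only proteasome gene called when TNF-α replicate 1 alone was set against the 3 NC libraries (log2 fold change 0.60, limma adjusted p = 0.043), where 3.7% of all genes were called higher. In that comparison the lone treated library is assumed to vary like the controls. Exons of the neighbouring gene AC040162.1, on the same strand, cover 58.3% of the coding bases of PSMB10. That neighbour had an FPKM of 0.296 to 0.380 in the 6 libraries, and the part of reads shared between them in these values was not tested.

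PSMB8 encodes beta5i, which replaces the chymotrypsin-like PSMB5. It lies beside PSMB9 on chromosome 6 (32840717 to 32844703) on the opposite strand. Its FPKM was 53.7, 49.97 and 52.0 in NC and 56.0, 201 and 164 in TNF-α. It was the most abundant inducible catalytic gene in every library, and the one whose replicate 1 stood least above the controls, at 1.08-fold the NC mean against 3.87- and 3.15-fold in replicates 2 and 3. The log2 fold change was 1.23 (SE 0.47, limma adjusted p = 0.195). Its exons overlap the antisense transcript PSMB8-AS1 over 20.6% of their length, and the source of the reads there cannot be assigned without strand.

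PSME1 and PSME2, the PA28 genes, are neighbours on chromosome 14 (24136158 to 24138967, plus strand, and 24143362 to 24147570, minus strand). PSME1 had an FPKM of 45.7, 42.5 and 44.6 in NC and 54.0, 151 and 132 in TNF-α, a log2 fold change of 1.20 (SE 0.39, limma adjusted p = 0.195). PSME2 had 32.2, 28.5 and 29.04 in NC and 37.3, 120 and 97.1 in TNF-α, a log2 fold change of 1.32 (SE 0.43, limma adjusted p = 0.195). Both were above every NC library in all 3 TNF-α libraries, and their products assemble into one ring. The ratio of PSME1 to PSME2 stayed narrow, at 1.42, 1.49 and 1.54 in NC and 1.45, 1.26 and 1.36 in TNF-α, where the groups overlap.

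Promoters had been planned for called proteasome genes, and since none was called, the starts of the 5 inducible genes are shown. All 5 were above the controls in every TNF-α library, as were other proteasome genes whose starts are not shown. Each window runs from 250 bases before to 50 bases after a RefSeq transcript start on GRCh38.p14 and is written in the direction of the gene. Capitals mark matches to GAAA, any 2 bases and GAAA, the core of the interferon-stimulated response element (ISRE), to TTCNNNGAA, the gamma-interferon activated site (GAS), to TGACNNNGC, the core of the antioxidant response element (ARE), or to the NF-kB consensus. All were searched on both strands, so that a match on the other strand reads as its reverse complement. A further PSMB8 window, at chr6:32844630-32844929 (minus strand), held no match to any of these motifs and is not printed. The windows printed are PSMB10 at chr16:67936801-67937100 (minus strand), PSMB8 at chr6:32843998-32844297 (minus strand), PSMB9 at chr6:32853942-32854241 (plus strand), PSME1 at chr14:24135944-24136243 (plus strand) and PSME2 at chr14:24146561-24146860 (minus strand).
PSMB10: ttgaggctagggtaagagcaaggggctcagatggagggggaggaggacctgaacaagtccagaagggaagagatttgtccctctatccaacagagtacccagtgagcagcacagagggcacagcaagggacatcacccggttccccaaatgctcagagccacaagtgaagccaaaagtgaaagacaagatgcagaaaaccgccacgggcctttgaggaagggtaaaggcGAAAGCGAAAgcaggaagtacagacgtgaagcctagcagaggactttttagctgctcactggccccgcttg
PSMB8: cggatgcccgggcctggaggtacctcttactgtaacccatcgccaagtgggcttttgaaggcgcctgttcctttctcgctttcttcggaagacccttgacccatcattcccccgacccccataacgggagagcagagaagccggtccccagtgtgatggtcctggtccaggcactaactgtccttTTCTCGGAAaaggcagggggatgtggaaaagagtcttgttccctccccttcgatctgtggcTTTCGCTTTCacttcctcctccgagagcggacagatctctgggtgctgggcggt
PSMB9: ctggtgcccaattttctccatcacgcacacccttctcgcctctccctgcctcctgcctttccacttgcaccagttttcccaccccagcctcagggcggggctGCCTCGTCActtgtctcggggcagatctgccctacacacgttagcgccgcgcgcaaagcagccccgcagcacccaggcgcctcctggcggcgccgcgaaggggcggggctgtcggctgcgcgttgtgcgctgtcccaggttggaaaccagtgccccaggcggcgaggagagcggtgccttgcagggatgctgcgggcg
PSME1: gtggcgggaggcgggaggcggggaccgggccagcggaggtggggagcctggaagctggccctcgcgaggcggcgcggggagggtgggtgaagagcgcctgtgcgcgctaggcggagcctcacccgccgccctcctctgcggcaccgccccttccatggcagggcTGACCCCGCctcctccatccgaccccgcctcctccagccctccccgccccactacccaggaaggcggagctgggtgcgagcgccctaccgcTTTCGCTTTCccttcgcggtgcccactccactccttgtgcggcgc
PSME2: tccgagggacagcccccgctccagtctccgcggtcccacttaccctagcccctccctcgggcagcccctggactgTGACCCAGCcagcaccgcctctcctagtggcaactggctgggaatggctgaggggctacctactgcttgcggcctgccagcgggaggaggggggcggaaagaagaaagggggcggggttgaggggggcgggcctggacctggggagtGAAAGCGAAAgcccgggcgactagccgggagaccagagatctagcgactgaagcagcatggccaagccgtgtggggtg

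The ISRE core was present in 4 of these 5 genes, beginning 21 bases before the start in PSMB10, 4 before in PSMB8, 28 before in PSME2 and 6 into the transcript in PSME1. PSMB9 had none in its window. The promoter of TAP1, a subunit of the transporter that carries proteasome products into the endoplasmic reticulum, faces PSMB9, and the windows share 13 bases. The TAP1 window, at chr6:32853655-32853954 on the minus strand, is printed because it holds overlapping ISRE cores and a pair of NF-kB consensus matches. Picked by its matches, it is no test of motifs near PSMB9. A further TAP1 window, at chr6:32852712-32853011, held a GAS match but no ISRE core or NF-kB match, and is not printed.
TAP1: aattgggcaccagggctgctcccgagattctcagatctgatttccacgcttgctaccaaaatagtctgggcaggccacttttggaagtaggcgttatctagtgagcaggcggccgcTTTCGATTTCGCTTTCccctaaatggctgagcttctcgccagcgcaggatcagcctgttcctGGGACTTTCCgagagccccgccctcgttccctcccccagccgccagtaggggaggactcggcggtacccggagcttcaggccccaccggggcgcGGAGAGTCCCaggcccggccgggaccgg

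The ISRE core was found in 3.57% of the 35116 windows of the reference table. Among the proteasome genes, 43 had a window, with 53 windows in all, and a gene was counted when any of its windows held the motif. The counts of genes, here and below, are therefore not on the scale of the shares of all windows. Outside the inducible set the core occurred in PSMA4, PSMB4 and PSMG4, so in 2 of the 26 constitutive subunits with a window. The NF-kB consensus, in 5.91% of all windows, was found in none of the 5 inducible genes and in 1 constitutive subunit, PSMA4. The GAS, in 7.66% of all windows, was found in 1 inducible gene, PSMB8, and in 5 constitutive subunits. The ARE core, in 13.3%, was found in 3 inducible genes and 7 constitutive subunits. These counts describe the letters in the windows and no binding was measured.

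Within each library, the share of each inducible catalytic gene in its pair was compared, since a ratio inside a library is free of that library's scaling. PSMB8 made up 39.0%, 38.5% and 40.0% of the summed FPKM of PSMB8 and PSMB5 in NC, and 43.0%, 48.0% and 46.3% in TNF-α. PSMB9 made up 18.6%, 16.5% and 17.8% of its sum with PSMB6 in NC and 24.4%, 19.6% and 22.5% in TNF-α. PSMB10 made up 5.56%, 5.24% and 5.94% of its sum with PSMB7 in NC and 8.47%, 6.72% and 7.96% in TNF-α. All 3 shares were higher in every TNF-α library than in every NC library, and for PSMB9 and PSMB10 the highest share was that of TNF-α replicate 1, the library with a composition like the controls.

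The log2 ratio to the constitutive partner differed between the groups by 0.39 for PSMB8 (NC -0.63 ± 0.046, TNF-α -0.24 ± 0.15, SD, n = 3 each), 0.41 for PSMB9 (NC -2.23 ± 0.11, TNF-α -1.82 ± 0.21) and 0.50 for PSMB10 (NC -4.08 ± 0.096, TNF-α -3.59 ± 0.19). The exact two-sided permutation test gave p = 0.1 for each of the 3 ratios and 0.1 after adjustment, the smallest p that 3 against 3 libraries can give, so the design cannot reach 0.05. After a correction for GC content and length, the differences were 0.37, 0.64 and 0.063, and the PSMB10 ratio no longer separated the groups (NC -3.69, -3.73 and -3.64, TNF-α -3.11, -4.06 and -3.70). The corrected ratios are on the log2(FPKM + 1) scale and the uncorrected ones on log2 FPKM, so the 2 sets are not directly comparable. On log2(FPKM + 1) the log2 fold changes of PSMB10 and PSMB7 were 1.46 and 1.13 before the correction and 0.86 and 0.79 after it.

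**Figure D2:**
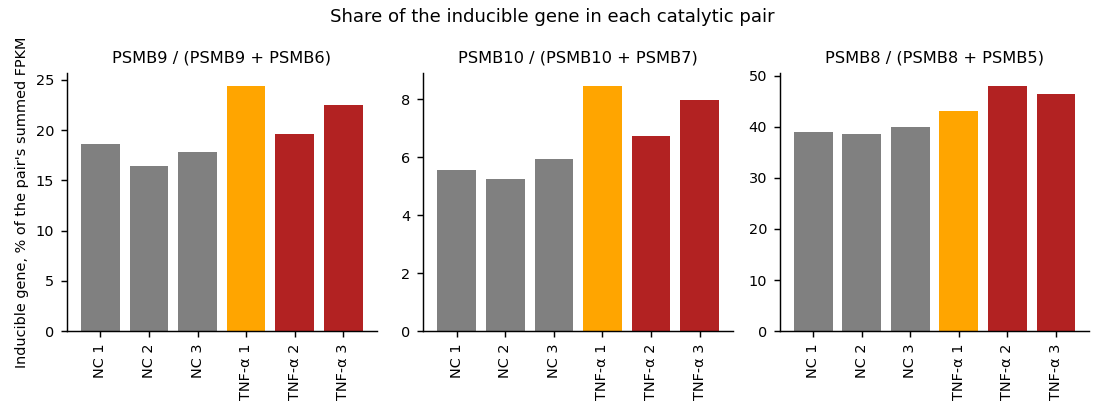
Bars give, for each library, the FPKM of the inducible gene as a percentage of the summed FPKM of the inducible gene and its constitutive partner, each panel from 0. All 3 TNF-α bars exceed all 3 NC bars in each panel, and the lowest TNF-α bar lies above the highest NC bar by 0.784 percentage points for PSMB10, 0.971 for PSMB9 and 2.98 for PSMB8.

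The constitutive alpha ring (PSMA1 to PSMA7) builds the gate of the core. Of its 7 genes 6 were tested, with a median log2 fold change of 0.75 and values from 0.55 for PSMA7 to 1.05 for PSMA1. PSMA7, the most abundant alpha gene, had an FPKM of 204, 189 and 202 in NC and 176, 390 and 357 in TNF-α. It thus lay below every NC library in TNF-α replicate 1 and above them in replicates 2 and 3, and its log2 fold change turned to -0.19 under quantile normalization. PSMA3, PSMA2 and PSMA5 were above every NC library in all 3 TNF-α libraries. PSMA2 had an FPKM of 0.959, 0.897 and 0.764 in NC and 1.26, 2.85 and 2.08 in TNF-α (log2 fold change 0.68, SE 0.21, limma adjusted p = 0.195). It was under an FPKM of 1 in every NC library and passed the filter only through the TNF-α libraries. Its direction was thus partly fixed by the filter, and its place in the counts of this text carries no weight. PSMA6 was below the level required for testing, at 0.302, 0.319 and 0.364 in NC and 0.469, 0.540 and 0.5001 in TNF-α, from 68 to 98 reads a library.

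The 7 alpha proteins are present in equal numbers in every core, and the NC means of their genes ran from 0.328 for PSMA6 to 198 for PSMA7. The 3 lowest, PSMA6, PSMA2 and PSMA1 (4.42 ± 0.76), had 70.4%, 97.1% and 88.6% of their coding bases inside exons of other annotated genes, whereas the other 4 had none and NC means of 22.3 to 198. Over the 47 proteasome genes other than PSMA8 and PSMB11, 6 had at least 30% of the coding bases so covered (PSMA1, PSMA2, PSMA6, PSMB10, PSMC1 and PSMD9), a limit chosen after the values were seen. Their NC means were 0.328 to 10.4, with a median of 2.74, against a median of 37.5 over the other 41. Whether reads in shared exons were left out of the counts is not given in the sources used here, and the part of this overlap in the low levels was not tested. The levels of these 6 genes are uncertain for that reason.

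The 7 constitutive beta genes had the highest median log2 fold change of the constitutive classes, 0.98, from 0.62 for PSMB2 to 1.13 for PSMB7. The order of the rings depended on the scaling and the library, as the alpha ring had the higher median after the GC and length correction (0.91 against 0.69), under quantile normalization (0.45 against 0.31) and in TNF-α replicate 1 (0.12 against -0.080). PSMB7 had an FPKM of 84.3, 73.8 and 80.9 in NC and 82.2, 287 and 227 in TNF-α, PSMB6 had 104, 96.4 and 106 against 90.8, 336 and 270, and PSMB5, the main target of proteasome inhibitor drugs, had 84.0, 79.8 and 78.0 against 74.2, 217 and 190. In all 3, replicates 2 and 3 were far above the controls while replicate 1 lay within or below them. Of the 7 genes, 5 were below every NC library in TNF-α replicate 1, PSMB7 was within them and PSMB2 was above. The non-catalytic PSMB3 had a log2 fold change of 1.08 and PSMB4 of 0.98 (limma adjusted p = 0.195 for both).

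In the 6 ATPases of the cap, PSMC1 to PSMC6, the median log2 fold change was 0.55. PSMC5 was largest at 1.10 (43.6, 40.9 and 43.4 in NC and 42.7, 155 and 117 in TNF-α), and PSMC1 smallest at 0.050 (10.4, 10.2 and 10.5 against 10.5, 10.7 and 11.1), a value below 0 as TPM, under quantile normalization and by limma-voom. The genes of this ring, whose proteins are also assembled in equal numbers, thus differed in how far TNF-α replicates 2 and 3 departed from NC. Exons of NRDE2, on the opposite strand, cover 47.7% of the coding bases of PSMC1.

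The 11 non-ATPase subunits of the cap had a median log2 fold change of 0.33. They ranged from -0.0012 for PSMD12 to 1.01 for PSMD13, which had an FPKM of 27.4, 27.1 and 26.2 in NC and 26.9, 91.1 and 68.0 in TNF-α. PSMD2, the large scaffold subunit of the cap and the most abundant of the proteasome genes in NC, had 264, 245 and 274 in NC and 272, 458 and 418 in TNF-α (log2 fold change 0.52, and -0.30 under quantile normalization). PSMD1, PSMD7 and PSMD11 were close to 0, at 0.17, 0.14 and 0.16, and below 0 as TPM, under quantile normalization and by limma-voom. PSMD12 had 28.2, 31.5 and 29.4 in NC and 31.9, 27.6 and 29.4 in TNF-α.

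**Figure D3:**
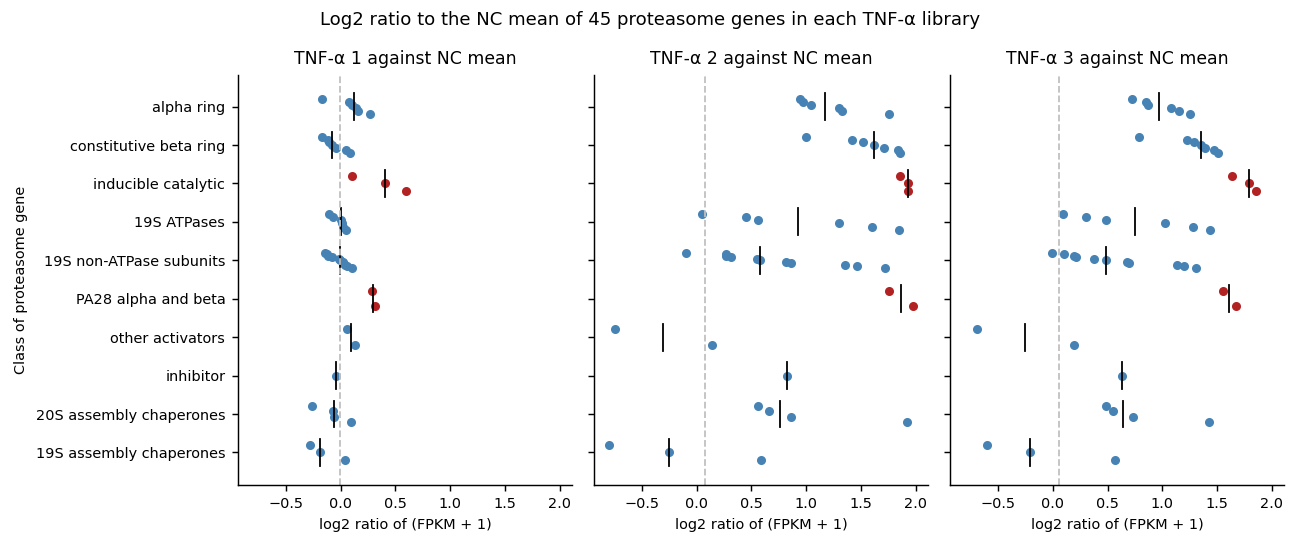
Each point is a tested proteasome gene, by class, with its log2 ratio of FPKM + 1 to the mean of the NC libraries in 1 TNF-α library, black bars the class medians and dashed lines the medians of all genes tested. In TNF-α replicate 1 the inducible genes (red) have medians of 0.41 and 0.30 and the constitutive classes lie near 0, while in replicates 2 and 3 most classes lie to the right of the dashed line.

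The remaining members act on assembly or on the ends of the core. PSMG1 to PSMG4 encode chaperones that build the alpha ring, and their log2 fold changes were 0.26 (-0.23 as TPM), 0.50, 1.10 and 0.45. PSMG3 had 21.2, 22.4 and 22.9 in NC and 21.2, 86.5 and 61.2 in TNF-α, and only PSMG2 was above every NC library in all 3 TNF-α libraries (8.70, 9.24 and 8.40 against 9.42, 14.5 and 15.2). PSMD5, PSMD9 and PSMD10 encode chaperones of the cap base. PSMD10, the oncoprotein gankyrin, was the 1 proteasome gene lower in every TNF-α library than in every NC library (32.2, 32.4 and 31.8 against 26.3, 26.8 and 27.6). Its log2 fold change was -0.25 (SE 0.12, limma adjusted p = 0.197). PSMD5 had 16.1, 15.6 and 14.3 in NC and 15.8, 8.39 and 9.77 in TNF-α (log2 fold change -0.45, limma adjusted p = 0.204). PSMD9 had a log2 fold change of 0.32 at an FPKM of 0.816 to 2.10.

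PSME3, the nuclear PA28 gamma, was nearly level, at 60.3, 61.4 and 61.8 in NC and 63.6, 67.5 and 70.0 in TNF-α (log2 fold change 0.13, SE 0.13, and -0.37 as TPM), although the groups did not overlap. PSME4, the PA200 activator, had 15.6, 14.7 and 15.6 in NC and 16.9, 8.71 and 9.08 in TNF-α (log2 fold change -0.44, SE 0.25, limma adjusted p = 0.230), so its direction in replicate 1 was opposite to that in replicates 2 and 3. PSMF1, the inhibitor PI31, had 18.5, 17.9 and 20.1 against 18.2, 34.0 and 29.8 (log2 fold change 0.47, and -0.014 as TPM). PSMC3IP, a meiotic recombination factor that shares the name pattern but is no subunit, had a log2 fold change of 0.040, below 0 under 6 of the alternatives. The testis-restricted PSMA8 was at 0 in all 6 libraries, and the thymus-restricted PSMB11 was seen in NC replicate 2 only, with 4 reads. Where a gene has no read, the 3 reads that a count of 0 allows correspond to an FPKM of 0.0415 to 0.0618 for a gene of 2 kb, for counting error only.

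Of the 46 tested genes, 42 had a log2 fold change above 0, where 6432 of all 12136 genes tested did. Their median was 0.64 against 0.043 over all genes tested. The 42 became 30 as TPM, 33 under quantile normalization and 36 by limma-voom. Other scalings moved the median of all genes, to -0.42 as TPM and -0.21 by limma-voom. Relative to that shift the order was alike, with medians of 0.83 for the inducible genes and 0.30 for the constitutive subunits as TPM, and 1.08 and 0.54 by limma-voom. The count of proteasome genes above the median of all genes was 41 as reported, 40 as TPM, 41 by limma-voom and 30 under quantile normalization. The groups did not overlap, with TNF-α higher, in 14 of the 46, which were the 5 inducible genes, 7 constitutive subunits, PSMG2 and PSME3. Among the 7 was PSMA2, which passed the filter only through the TNF-α libraries. Across all genes 14.8% did so, and 15.3% were apart with TNF-α lower, as PSMD10 was. TNF-α replicates 2 and 3 were both above every NC library in 41 of the 46, against 46.1% of all genes, and both below in 3 (PSMD5, PSMD10 and PSME4), against 40.8%.

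TNF-α replicate 1, the treated library most like the controls in composition, was above every NC library in 5 of the 5 inducible genes and in 8 of the 30 constitutive subunits, where 30.5% of all genes were above. The 8 include PSMA2, which passed the filter only through the TNF-α libraries. By log2 ratio in this library PSMB8 ranked 10 of the tested proteasome genes (0.11), below the constitutive PSMA2 (0.27), PSMA3 (0.16) and PSMA1 (0.14). TNF-α replicate 1 was below every NC library in 11 constitutive subunits, where 34.3% of all genes were below, and within the NC range in the other 11. The mean log2(FPKM + 1) of the inducible genes minus that of the 31 constitutive subunits was -0.54, -0.67 and -0.56 in NC, and -0.25, 0.25 and 0.27 in TNF-α. The groups did not overlap, and the difference of their means was 0.68. It was 0.34 with TNF-α replicate 1 alone, 0.85 without it, and 0.37 after the GC and length correction, over the 30 tested constitutive subunits.

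**Figure D4:**
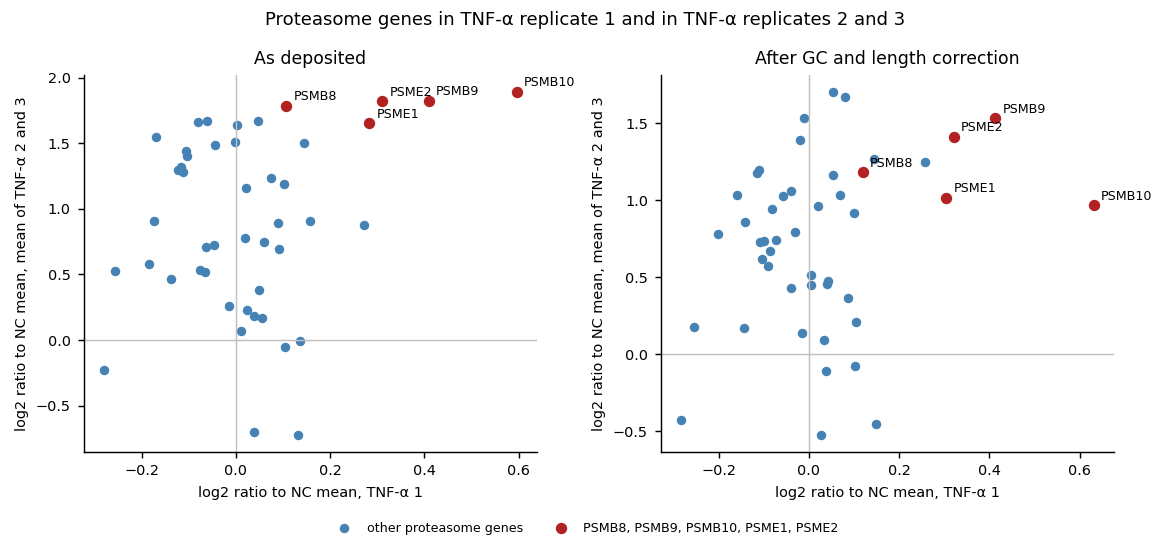
Each point is 1 of the 46 tested proteasome genes, with its log2 ratio to the NC mean in TNF-α replicate 1 on the x axis and the mean of that ratio in TNF-α replicates 2 and 3 on the y axis, as deposited (left) and after correction for GC content and length (right). The inducible genes (red) lie to the right of 0 in both panels and reach 0.60 for PSMB10 on the left, and on the right other proteasome genes have the highest values on the y axis.

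Leaving out TNF-α replicate 1 left 2 treated libraries of like composition. Then 39 of the 46 proteasome genes were called higher and 3 lower by limma, in a setting where 42.6% of all genes were called higher and 36.8% lower. All 5 inducible genes were among the 39, with log2 fold changes of 1.65 to 1.89, as were 27 constitutive subunits. The 3 called lower were PSMD5, PSMD10 and PSME4. The composition of these libraries and the treatment cannot be told apart in that comparison.

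Short and GC-rich genes had the larger fold changes, among the proteasome genes as among all genes. Across the 46 genes the Spearman correlation of the log2 fold change with the length of the longest transcript was -0.51, and with its GC content 0.45. Over 12131 genes the values were -0.48 and 0.43. These are across genes, which share libraries and are not independent replicates. The beta genes were short (median longest transcript 1294 bases), and the non-ATPase genes of the cap longer (median 3326 bases).

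**Figure D5:**
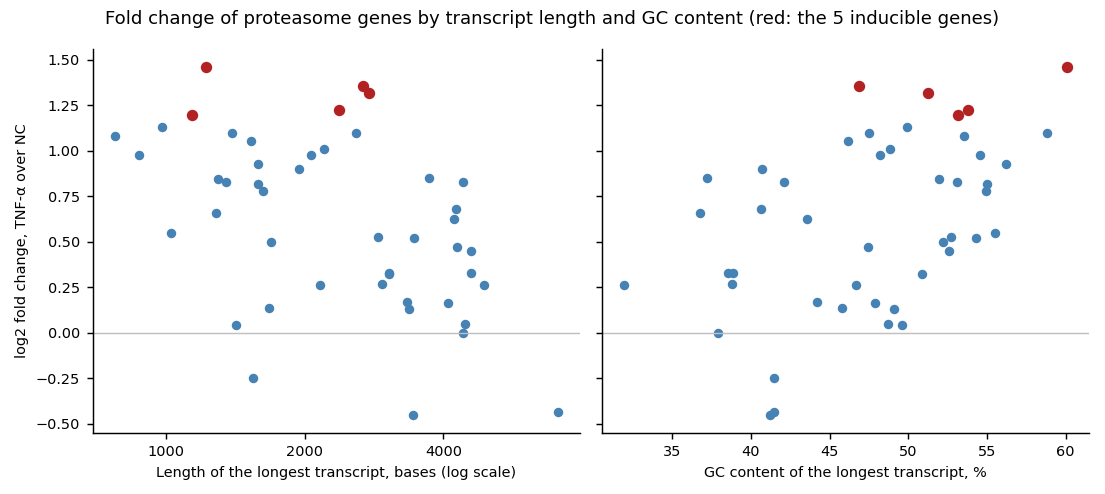
Each point is a tested proteasome gene, with its log2 fold change (TNF-α over NC) on the y axis and the length (left, log scale) or GC content (right) of its longest transcript on the x axis. Fold changes are lower at greater length and higher at greater GC content, and the 5 inducible genes (red) are at the top of both panels, between 1136 and 2754 bases.

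After each library was corrected for GC content and length, the median log2 fold change of the inducible genes was 0.86 and that of the constitutive subunits 0.58. Within the constitutive subunits the alpha ring had a median of 0.91, above that of the inducible genes. PSMB10 was then the only proteasome gene called (log2 fold change 0.86, limma adjusted p = 0.036), where 1.27% of all genes were called higher. The inducible genes did not keep the first 5 places. PSMB9 (1.16) was first and PSME2 (1.05) ranked 4, with the constitutive PSMA5, PSMA4 and PSMC5 among the 5 largest. PSMB10 ranked 9, PSMB8 10 and PSME1 12. In TNF-α replicate 1 the correction changed little, with medians of 0.32 for the inducible genes and -0.013 for the constitutive subunits.

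Partners of the proteasome that the name rule does not reach were listed separately. Of 16, none was called, 8 had a log2 fold change above 0, and their median was 0.081. POMP, the chaperone that completes the core, had an FPKM of 56.8, 64.6 and 55.6 in NC and 67.8, 207 and 168 in TNF-α (log2 fold change 1.16, SE 0.42, limma adjusted p = 0.195). It was above every NC library in all 3, where 14.8% of all genes were. RAD23B was below every NC library in all 3, where 15.3% of all genes were (47.5, 49.1 and 47.9 in NC and 46.7, 32.6 and 33.1 in TNF-α, log2 fold change -0.37). UBE3C had the lowest log2 fold change of the list, -0.46. ADRM1, a ubiquitin receptor of the cap, had 62.5, 58.9 and 71.4 against 71.0, 187 and 154 (0.98). SEM1, a small subunit of the cap, had 6.52, 5.81 and 5.34 against 5.39, 17.3 and 13.8 (0.80). Of 5 genes that control constitutive subunits none was called, with a median of -0.16. Among them NFE2L1, the factor that raises proteasome genes when proteasome activity is short, had 78.6, 77.0 and 86.3 in NC and 86.2, 55.9 and 60.5 in TNF-α.

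Of 7 factors known to act on immunoproteasome genes, 4 had a log2 fold change above 0, and the median was 0.29. The lowest was SP1 at -0.66, with an FPKM of 14.5, 14.2 and 14.9 in NC and 14.3, 6.70 and 7.06 in TNF-α. Of the 7, 1 was called, the interferon regulatory factor IRF1, where 0.717% of all genes were called higher. Its FPKM was 4.61, 5.18 and 5.74 in NC and 11.9, 20.2 and 19.7 in TNF-α, so every TNF-α library was above every NC library. The log2 fold change was 1.53 (SE 0.22, limma adjusted p = 0.043), it was 1.07 with TNF-α replicate 1 alone (adjusted p = 0.0048), and it was not called when any 1 library other than TNF-α replicate 1 was left out (adjusted p 0.157 to 0.291). Exons of other genes cover 59.5% of its coding bases. NLRC5, the activator of MHC class I genes, had 9.46, 8.21 and 10.2 against 11.6, 11.9 and 11.2 (0.29, limma adjusted p = 0.195, and -0.18 as TPM).

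Of 17 genes that carry or trim peptides for MHC class I, 16 were tested and none was called, although 9 were at an unadjusted p under 0.05, where 24.2% of all genes were, and 11 were higher in every TNF-α library than in every NC library, where 14.8% of all genes were. Their median log2 fold change was 0.46, with limma adjusted p from 0.063, and 12 of the 16 were above 0. TPP2 (-0.69), CANX (-0.62), NPEPPS (-0.30) and ERAP1 (-0.21) were below 0. In these 4, TNF-α replicates 2 and 3 were both below every NC library, where 40.8% of all genes were. TAP1 had an FPKM of 89.7, 83.5 and 94.2 in NC and 143, 160 and 173 in TNF-α (log2 fold change 0.82, SE 0.16, limma adjusted p = 0.097). With TNF-α replicate 1 alone its log2 fold change was 0.68. The median of the list was then 0.37, and TAPBP and HLA-B were higher than TAP1, at 0.96 and 0.75. The 3 TNF-α libraries of TAP1 lay close together, whereas those of its neighbour PSMB9 ran from 29.4 to 82.0.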

How the data were processed

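Poly(A)-selected RNA libraries of U251 cells, extracted with TRIzol and a column kit, were prepared with a NEBNext Ultra RNA kit, for which no strand marking is stated, and a service company sequenced and processed them. The submitters' processing notes name HISAT2 2.0.5, StringTie 1.3.3b, featureCounts 1.5.0, DESeq2, edgeR and GATK 3.7 without a role. The genome build and the use of strand are not given in the sources used here. Expression was deposited by the authors as FPKM, 1 column a library, with gene lengths. All 58735 genes matched GENCODE release 29 (GRCh38) in identifier, name, start and end. A further 6 columns match no sample described here and were not used. Multiplied by gene length, 100% of values came out as whole reads (within 0.01) of a unit particular to the library. The deposited library size was 0.693 and 0.759 of the reads in genes in TNF-α replicates 2 and 3 and 0.925 to 0.959 elsewhere.

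Groups and replicate numbers came from the sample titles. The TNF-α and NC groups were compared on log2(FPKM + 1), a scale that understates changes of low genes, with limma 3.58.1 in R 4.3.3 (eBayes with an intensity trend, two-sided). The filter kept genes at an FPKM of 1 or more in 3 or more libraries, p was adjusted over all of them by the Benjamini-Hochberg method, and the threshold was 0.05. The test was tried first on simulated data. Ratios of gene pairs were tested by exact permutation with scipy 1.17.1. The replicates are stated to be independent.

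Members, classes, lists and motifs were chosen with earlier results of these data known. The genes named were the inducible genes, their partners, activators, chaperones, the inhibitor, PSMA8, PSMB11, PSMC3IP, any member past the threshold, the 5 largest and 5 smallest fold changes and the 3 highest and 3 lowest NC levels of the rest, 8 listed genes outside the set, of which 1 is not reported here, and any list member past the threshold. Other names were chosen after their values were seen. Promoters had been planned for members past the threshold, and since none passed, those of the inducible genes and TAP1 were taken afterwards. Windows and starts are RefSeq's, and 4 motifs were searched. Overlap is the share of coding bases inside exons of another GENCODE gene on either strand. GC content of the longest transcript and the deposited gene length were corrected for per library with natural splines of 5 degrees of freedom. The 20 alternatives were pseudocounts of 0.1 and 0.5, no filter, an FPKM of at least 5, TPM, quantile normalization, median centring, the GC and length correction, no trend, the robust option, limma-voom on recovered reads, the replicate block, protein-coding genes only, each library left out in turn, and TNF-α replicate 1 as the only treated library. Intervals of counting do not cover PCR duplicates.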

Additional observations from a re-analysis of the deposited data

How the results depend on the processing

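In all 20 alternatives the 5 inducible genes had log2 fold changes above 0, and in 16 of them these were the 5 largest of the proteasome genes. The exceptions were quantile normalization (3 of 5), the GC and length correction (2), leaving out TNF-α replicate 1 (4) and that replicate with the NC libraries alone (4). The composition of TNF-α replicates 2 and 3, and 3 libraries a group, limit every value here. A proteasome gene with a log2 fold change as large as 1.46 was not called.

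The 123 genes called in all became 58 without a filter, 79 at an FPKM of at least 5, 58 as TPM, 185 with quantile normalization, 247 with the GC and length correction, 77 with limma-voom and 732 with TNF-α replicate 1 alone. The counts ran from 10 to 9630 when 1 library was left out. Proteasome genes called higher numbered 1 (PSMB10) with the correction and 1 (PSMB10) with TNF-α replicate 1 alone. Leaving out 1 library gave 0 to 39 called higher and 0 to 3 called lower, and 39 and 3 were the counts without TNF-α replicate 1. Some of these counts follow from their construction, as fewer genes or libraries were fitted, and otherwise the cause was not tested. With the replicate block 24 genes were called, no proteasome gene among them, and IRF1 was lost (adjusted p = 0.110). Deviations of same-numbered libraries correlated at -0.014, -0.18 and 0.12. TNF-α replicates 2 and 3 correlated alike with NC replicate 2 (-0.18 and -0.16) and with NC replicate 3 (0.17 and 0.12). The correlations therefore cannot decide whether the numbers mark pairs. The numbers were taken as names because they are not said to mark a shared culture or day. The adjusted p of IRF1 was 1e-05 to 0.291 over the alternatives, including 0.116 without a filter and 0.052 with the robust option.

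The mean of the inducible minus the constitutive genes was 0.37 with the correction and 0.34 with TNF-α replicate 1 alone, against 0.68, and 0.59 to 0.85 with 1 library left out. The pair ratios, in which most scaling cancels, were 0.31 to 0.52 for PSMB9, 0.42 to 0.60 for PSMB10 and 0.32 to 0.47 for PSMB8 with 1 library left out. With the GC and length correction the PSMB10 ratio was 0.063, and the groups overlapped. That value is on log2(FPKM + 1) and the uncorrected 0.50 on log2 FPKM, so their gap is not due to the correction alone.

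Of the 46 proteasome genes, 22 had the other sign with TNF-α replicate 1 alone, 12 as TPM, 9 with quantile normalization and 6 with limma-voom. Among the genes named by rule, those that turned with TNF-α replicate 1 alone were PSMA7 -0.17, PSMB3 -0.080, PSMB4 -0.044, PSMB5 -0.12, PSMB6 -0.17, PSMD1 -0.015, PSMD12 0.11, PSMD13 -0.0027, PSMD5 0.038, PSMD9 -0.18, PSME4 0.13, PSMF1 -0.046, PSMG1 -0.26, PSMG3 -0.061, PSMG4 -0.065, SEM1 -0.11 and NFE2L1 0.096. As TPM they were PSMC1 -0.44, PSMC3IP -0.45, PSMD1 -0.33, PSMD11 -0.34, PSMD7 -0.35, PSME3 -0.37, PSMF1 -0.014, PSMG1 -0.23 and NLRC5 -0.18. With quantile normalization they were PSMA7 -0.19, PSMC1 -0.030, PSMC3IP -0.037, PSMD1 -0.29, PSMD11 -0.23, PSMD2 -0.30, PSMD7 -0.073 and PSME3 -0.34. With limma-voom they were PSMC1 -0.21, PSMC3IP -0.22, PSMD1 -0.092, PSMD11 -0.10, PSMD7 -0.12 and PSME3 -0.13, with the correction PSMC3IP -0.25, PSMD12 0.27 and PSMD7 -0.059, and with centring PSMC3IP -0.0069. With 1 library left out, PSMD12 ran from -0.054 to 0.047 and PSMC3IP from -0.0084 to 0.12. The cause of these turns was not tested.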
